A study of Sus scrofa with 2 samples.

Results

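Vessel-wall spots were picked out in 2 spatial transcriptomes of pig psoas major, a muscle of the loin, by the UMIs (unique molecular identifiers, which count captured RNA molecules) of 4 smooth muscle genes. A spot was a member if it held at least 2 UMIs of MYH11, CNN1, TAGLN and ACTA2 together, if these reached at least 1000 raw CPM (UMIs per 1000000 UMIs of the spot), and if MYH11 or CNN1 was among them. This gave 76 of 5426 spots, 29 of 2487 in section 1 (1.17%, exact 95% binomial interval 0.782 to 1.67) and 47 of 2939 in section 2 (1.60%, 1.18 to 2.12). The interval covers counting error only. The members were thus chosen by the measured UMIs of these genes, in the same libraries that are described below. A spot is a small disc of a barcoded slide, wide enough to cover pieces of neighbouring fibres and of vessels between them, so that a vessel-wall spot is a spot with smooth muscle RNA in it and not a purified vessel.

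The muscle came from 2 female Landrace pigs, and 1 cryosection of 15 µm per library was laid on its own capture area of 1 shared slide. There was 1 group of samples, untreated psoas major, so all comparisons were made between kinds of spot inside each section. Which pig gave which section, and the age of the pigs, could not be taken from the labels or methods. The spots are not replicates of a condition, and n = 2 sections throughout.

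An artery or vein is built as a tube. Its inner lining is endothelium, its middle coat is contractile smooth muscle embedded in elastic and collagen fibres, and its outer coat is loose connective tissue with fibroblasts. In skeletal muscle the larger vessels run in the connective tissue between fibre bundles, while capillaries, which have pericytes in place of a smooth muscle coat, run between single fibres. Smooth muscle contracts when myosin light chain is phosphorylated, and its contractile genes are known to be switched on by serum response factor together with myocardin through a short promoter motif, the CArG box.

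The 4 genes that chose the spots lie on different chromosomes of Sscrofa11.1. MYH11 (ENSSSCG00000000146, chromosome 3, 7002667 to 7143093) encodes the smooth muscle myosin heavy chain. CNN1 (ENSSSCG00000013614, chromosome 2, 70183370 to 70190756) encodes calponin, an actin-binding regulator of contraction. TAGLN (ENSSSCG00000015073, chromosome 9, 44561756 to 44567385) encodes transgelin, another actin-binding protein, and ACTA2 (ENSSSCG00000010447, chromosome 14, 100868145 to 100886732) the smooth muscle alpha actin. ACTA2 is nearly identical in its coding part to ACTA1, the actin of muscle fibres. Whether some ACTA1 molecules were counted as ACTA2 was not tested.

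The CArG box was searched on both strands, as its palindromic consensus, in the window from 250 bases before to 50 after the RefSeq gene start. It was found in 300 of 19559 protein-coding windows on assembled chromosomes (1.53%). Among the 4 genes only the TAGLN window held it, and there it stood at 2 positions. Of the 14 smooth muscle list genes that were higher in the vessel-wall spots, 2 held it, MYL9 and TPM4. The sites are shown because these genes mark the same spots in the counts, and each is printed 5′ to 3′ on the gene's strand with the CArG box in capitals. On Sscrofa11.1 the first TAGLN site is at chr9:44561555-44561584 and the second at chr9:44561682-44561711, both on the plus strand. The MYL9 site is at chr17:39788085-39788114, plus strand, and the TPM4 site at chr2:61476813-61476842, minus strand.
TAGLN first site: gtcctcctgtCCATAAAAGGcttttcccgg
TAGLN second site: gtgtctttccCCAAATATGGagcctgtgtg
MYL9 site: tgggtcgaagCCAAATAAGGccgggctgct
TPM4 site: aatcctaggcCCAAATAAGGcgagggctgc
The MYL9 and TPM4 boxes carry the same 10 letters, CCAAATAAGG. A match describes the reference sequence and is no evidence of binding here, and windows without a match, such as that of MYH11, only lack these letters in this stretch.

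Section 1 held 3633249 UMIs and section 2 held 5382677. Spots kept by the filters applied here (2429 and 2878) had medians of 929 and 1350.5 UMIs, and no vessel-wall spot was lost to them. Vessel-wall spots had medians of 1841 and 2320 UMIs, more than the 687.5 and 998 of spots with 0 UMIs of the 4 genes and fewer than the 2533 and 3122 of the remaining spots. For this reason every comparison used control spots of like total UMIs. Barcodes mark the same slide position in each capture area, and 2104 of them occurred in both sections, 1 of them a member in both.

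The values that chose the spots are given as a description. Members held 319 UMIs of the 4 genes in section 1 and 482 in section 2. The lowest, median and highest member held 2, 5 and 87 UMIs in section 1 and 2, 6 and 67 in section 2, so that a few spots stood far above the others. The 3 strongest spots held 48.0% of the UMIs of the 4 genes in section 1 and 27.2% in section 2. In raw CPM the members ranged from 1020 to 21508 (median 2964) and from 1006 to 17118 (median 2144). The spots nearest below the limit of 1000 stood at 981 and 998 raw CPM, and the second lowest members at 1029 and 1037, so no gap separates members from other spots. A further 63 and 58 spots passed both limits without a UMI of MYH11 or CNN1 and were not members.

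**Figure D1:**
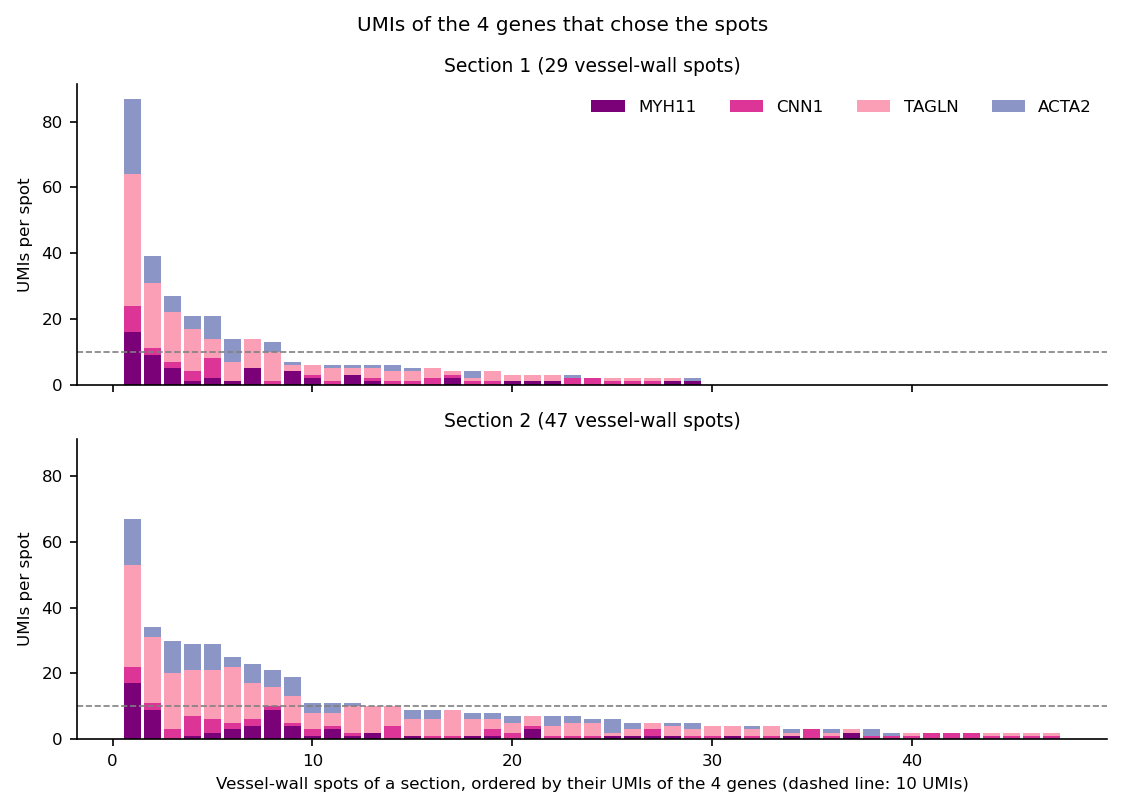
Bars give the UMIs of MYH11, CNN1, TAGLN and ACTA2 (y axis, UMIs per spot, stacked) in each vessel-wall spot of section 1 and section 2, ordered by their sum along the x axis. The sums fall steeply from 87 and 67 UMIs, and 8 of 29 and 14 of 47 spots reach the dashed line at 10 UMIs.

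TAGLN supplied most of this signal, with 48.9% and 50.2% of the members' UMIs of the 4 genes, before ACTA2 with 21.3% and 21.4%. MYH11 was the gene most tied to the members: 72.7% and 74.5% of all its UMIs in a section lay in them, against 35.5% and 35.1% for CNN1, 26.7% and 31.2% for TAGLN and 23.9% and 24.0% for ACTA2. The rule asks for MYH11 or CNN1, which raises their shares. All 4 genes were seen in 6 members of section 1 and 12 of section 2, 3 genes in 10 and 17, 2 genes in 12 and 14, and a single gene in 1 and 4. MYH11 and CNN1 were seen together in 8 and 14 members, MYH11 alone in 9 and 9, and CNN1 alone in 12 and 24.

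Members were sorted into 3 ranges of their UMIs of the 4 genes, set after the data had been seen. The range of 2 to 3 UMIs held 10 and 14 members, that of 4 to 9 held 11 and 19, and that of 10 or more held 8 and 14. The last range held 236 of the 319 UMIs in section 1 and 330 of the 482 in section 2. The weakest members rest on very few molecules, and the shallowest member met the rule with 2 UMIs of CNN1.

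The strongest spot of section 1 held 4045 UMIs, with 16 of MYH11, 8 of CNN1, 40 of TAGLN and 23 of ACTA2, together 2.15% of its RNA. It also held 22 UMIs of MYL9, the regulatory light chain of smooth muscle myosin, 20 of ADIRF, 19 of FLNA and 19 of MGP. The strongest spot of section 2 held 3914 UMIs, with 17 of MYH11, 5 of CNN1, 31 of TAGLN and 14 of ACTA2 (1.71%), beside 23 of MYL9, 22 of FLNA, 14 of CSRP1, 13 of ADIRF and 7 of MGP. Both still held muscle fibre RNA, with 13 and 11 UMIs of MYH7, the slow myosin heavy chain.

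The main comparison asked which other genes differed between vessel-wall spots and spots of the same section and like depth with 0 UMIs of the 4 genes (87 spots in section 1 and 282 in section 2). UMIs were summed per section and kind of spot, and of 1641 genes tested 287 were higher (17.5%) and 203 lower (12.4%) in vessel-wall spots at an adjusted p under 0.05 (edgeR's quasi-likelihood test, Benjamini-Hochberg). Together these 490 genes were 29.9% of those tested. The shares of 17.5% and 12.4% are the background for the counts of called list genes of this fit below. Other fits have their own background: with no filter on low counts 175 of 12159 genes were higher and 399 lower. With controls also matched on collagen it was 196 and 175 of 1382, and with myosin matching 153 and 79 of 959. Members of fewer than 10 UMIs gave 46 and 3 of 1043, and DESeq2 gave 171 and 62 of 1641. All 490 had the same sign in both sections. The changes upward were the larger ones, since 251 of the higher and 57 of the lower genes changed more than 2-fold, while the median log2 fold change over all genes tested was -0.04. The filter on low counts keeps genes that are high in 1 kind of spot, so the balance of calls depends on it and on scaling: without TMM factors 385 were higher and 110 lower, with sums scaled to equal spot numbers 391 and 117, and with no filter 175 and 399. Below, normalised CPM means CPM after TMM scaling, and raw CPM is a gene's or list's share of all UMIs of those spots with no such scaling.

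ADIRF (ENSSSCG00000037918, chromosome 14, 87928721 to 87930935), named for a role in adipocyte regulation, showed the largest fold among the named genes. It had 76 UMIs in the members of section 1 and 120 in those of section 2, seen in 14 of 29 and 26 of 47 spots. The control spots held 0 UMIs in 87 spots and 15 UMIs in 282 spots. The levels were 1051 and 881 normalised CPM in vessel-wall spots against 0 and 21.1 in controls, and the fitted log2 fold change was 5.75 ± 0.34 (SE, adjusted p = 2.19e-12).

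Genes of the smooth muscle contractile machinery outside the rule were among those with the largest rise. MYL9 (ENSSSCG00000036402, chromosome 17, 39788165 to 39795240) stood at 1106 and 800.0 normalised CPM against 39.9 and 32.4, a log2 fold change of 4.68 ± 0.27 (adjusted p = 1.22e-12). It was seen in 13 of 29 and 27 of 47 vessel-wall spots and in 7 of 87 and 21 of 282 control spots. FLNA (ENSSSCG00000033299, chromosome X, 124889934 to 124915000), filamin A, which cross-links actin, stood at 1217 and 932 against 57.0 and 52.1 normalised CPM (4.23 ± 0.22, adjusted p = 2.00e-13). CSRP1, a LIM protein of smooth muscle, stood at 705 and 477 against 11.4 and 29.6 (4.37 ± 0.33), and DSTN, an actin-depolymerising factor, at 581 and 257 against 22.8 and 12.7 (4.46 ± 0.43). These genes were named for a large fold with the same sign in both sections, so the gap between their sections and the controls follows from that choice.

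The regulators of the contraction switch rose as well. MYLK encodes the kinase that phosphorylates myosin light chain, and it stood at 207 and 139 normalised CPM against 5.70 and 11.3 (log2 fold change 3.97 ± 0.64, adjusted p = 3.85e-05). PPP1R14A encodes an inhibitor of the phosphatase that removes that phosphate (4.37 ± 0.69, adjusted p = 2.60e-05). CALD1, caldesmon, rose by 3.44 ± 0.38, LMOD1, leiomodin of smooth muscle, by 1.73 ± 0.40, and SMTN, smoothelin, by 1.63 ± 0.34 on the log2 scale.

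Of the 35 genes of the smooth muscle list, 33 were in the files and 24 were tested. Of these 14 were higher, 4 were lower and 6 did not pass, with a median log2 fold change of 1.51 against -0.04 over all genes. The 4 lower genes were TPM2 (-0.46), HSPB6 (-0.81), PDLIM3 (-0.47) and DES (-0.77), all of which muscle fibres also make at high levels: DES, desmin, stood at 3782 and 3628 normalised CPM in control spots. With no TMM factors, or with scaling by spots, 16 of the list were higher and 2 lower. With no filter on low counts 12 of 33 were higher and 6 lower (median 1.53). TPM1, shared by both muscle types, stood at 5075 and 5409 against 5145 and 5956 normalised CPM (adjusted p = 0.653). Of the 9 list genes too low to be tested, 5 were higher in raw CPM in both sections. ACTG2, the other smooth muscle actin, had 5 UMIs in members and 0 in controls, and PPP1R12A, the myosin phosphatase targeting subunit, 15 and 15 UMIs in the 76 member and 369 control spots.

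**Figure D2:**
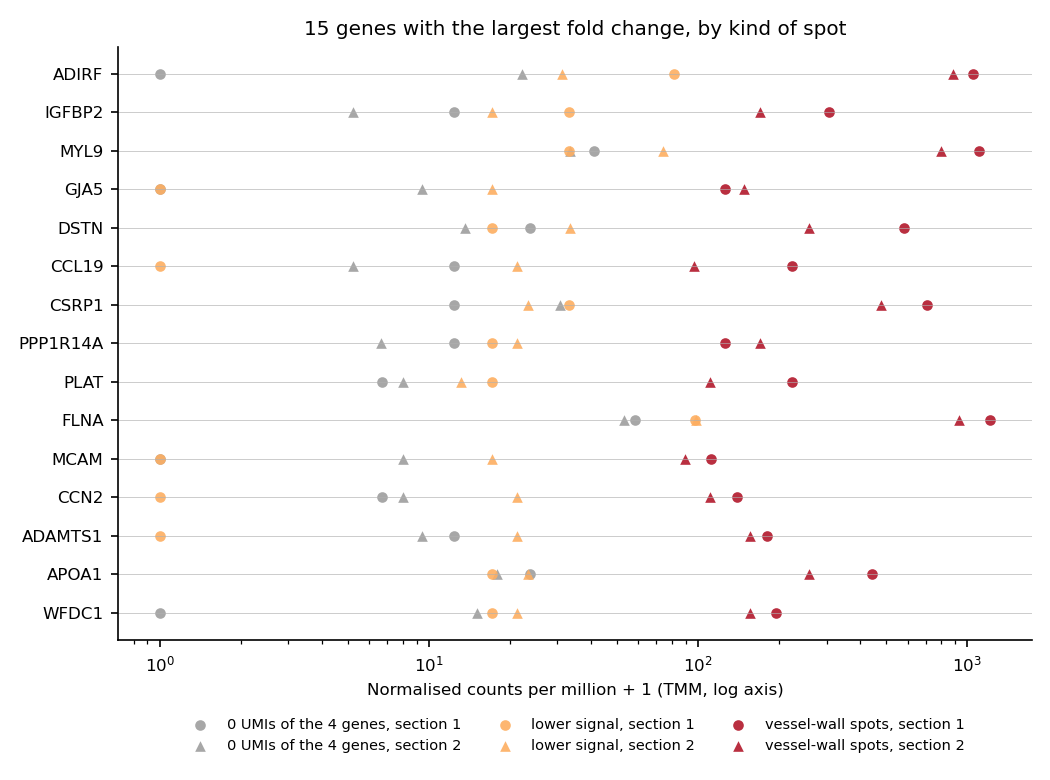
Points give the level (x axis, normalised CPM + 1, log axis) of the 15 named genes with the largest fold change in vessel-wall spots (red), lower-signal spots (orange) and spots with 0 UMIs of the 4 genes (grey), circles for section 1 and triangles for section 2. The genes were chosen for their fold over the grey points. In each row both red points lie to the right of all others, such as 1106 and 800.0 for MYL9.

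Other genes among the 15 with the largest rise are given with what they encode. They were chosen by their fold, and the filter on low counts keeps genes that are high in 1 kind of spot. A gene that is rare in controls could thus enter the test only through a kind of spot where it was high. IGFBP2, a binding protein of insulin-like growth factors, stood at 304 and 169 normalised CPM against 11.4 and 4.22 (4.98 ± 0.63), on 45 UMIs in members and 5 in controls. PLAT, the tissue plasminogen activator that endothelium releases, rose by 4.28 ± 0.68 and MCAM, an adhesion molecule of vessel walls, by 4.13 ± 0.81. CCN2, a matrix-associated growth factor, rose by 4.11 ± 0.73, ADAMTS1, a matrix protease, by 4.11 ± 0.67, and WFDC1, a secreted protein with a WAP domain, by 4.00 ± 0.66. CCL19, a chemokine that guides lymphocytes and dendritic cells, rose by 4.38 ± 0.74 with 29 UMIs in members. APOA1, the main protein of high-density lipoprotein, stood at 442 and 257 against 22.8 and 16.9 normalised CPM (4.03 ± 0.44).

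The endothelial list held 30 genes, with 4157 and 3090 raw CPM in vessel-wall spots against 723 and 792 in controls, 5.75 and 3.90 times as much. Of 16 genes tested 14 were higher and 2, ESAM and FLT1, did not pass (median log2 fold change 1.82). With no filter on low counts 8 of 29 were higher and 0 lower (median 1.37). CLDN5, the claudin of endothelial tight junctions, stood at 166 and 95.4 normalised CPM against 0 and 9.85 (3.85 ± 0.74, adjusted p = 2.51e-04), and TM4SF1 rose by 3.28 ± 0.62. PECAM1, which joins endothelial cells to each other, stood at 318 and 198 against 28.5 and 56.3 (2.27 ± 0.39), and VWF, the clotting factor that endothelium stores, at 194 and 103 against 28.5 and 53.5 (1.59 ± 0.51). Of the 14 list genes too low to be tested, 9 were higher in raw CPM in both sections, among them NOS3 and EMCN. Endothelial UMIs were spread over most members: 24 of 29 and 42 of 47 had at least 1, with medians of 3 and 5, against 53 of 87 and 193 of 282 controls with medians of 1 and 1.5. In such sums more cells of a type and more RNA per cell cannot be told apart.

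Of 9 arterial and 5 venous genes in the files, 2 of each list were tested and these 4 were higher. The filter on low counts keeps genes that are high in 1 kind of spot. With no filter 3 of 9 arterial genes (median 2.03) and 1 of 4 venous genes (median 2.55) were higher, and 0 lower. Of the 7 untested arterial genes 4, and of the 3 venous ones 1, were higher in raw CPM in both sections. GJA5, a connexin of arterial endothelium, stood at 124 and 147 normalised CPM against 0 and 8.44 (4.47 ± 0.74, adjusted p = 5.28e-05), and SEMA3G, another arterial gene, rose by 3.32 ± 0.74. ACKR1, the chemokine receptor of venules, stood at 96.8 and 66.1 against 11.4 and 11.3 (2.69 ± 0.71, adjusted p = 0.00489), and NR2F2, the transcription factor that sets venous identity, rose by 3.38 ± 0.75. Counting these 4 tested genes only, GJA5 or SEMA3G without the venous pair was seen in 6 members of section 1 and 10 of section 2, ACKR1 or NR2F2 without the arterial pair in 5 and 7, both pairs in 2 and 3, and neither in 16 and 27. In control spots the arterial pair was seen in 2 of 87 and 7 of 282 spots, and the venous pair in 4 and 8. The other genes of the lists were left out of this tally, which was set after the calls were known.

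Of 15 genes often used for pericytes, the cells on capillaries, 5 were tested, of which 3 were higher and 2 did not pass. With no filter on low counts 3 of 15 were higher and 0 lower (median 1.34). The list summed to 922 and 714 raw CPM against 200.4 and 259, and 6 of its 10 untested genes were higher in raw CPM in both sections and 0 lower, with 3 to 12 UMIs each in controls. These were CSPG4, HIGD1B, COX4I2, GJA4, HEYL and CD248, and 3 of the other untested genes had 0 UMIs in members. HIGD1B stood at 31.3 and 56.2 raw CPM against 5.27 and 7.89, and COX4I2 at 78.1 and 32.1 against 5.27 and 10.5, on 9 UMIs each in members. NOTCH3 (3.86 ± 0.68), MCAM (4.13 ± 0.81) and PDGFRB (3.44 ± 0.78), which smooth muscle of vessels also makes, rose. RGS5, a regulator of G-protein signalling that is prominent in capillary pericytes, stood at 111 and 117 normalised CPM in vessel-wall spots and 108 and 118 in controls, a log2 fold change of 0.02 ± 0.37 (adjusted p = 0.968), and NDUFA4L2, another pericyte gene, gave -0.05 ± 0.52.

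The level of RGS5 was not even across the ranges of the 4 genes. It was 293 and 137 raw CPM in members with 2 to 3 UMIs, 151 and 217 in those with 4 to 9, and 0 in all 22 members with 10 or more. The levels of the range of 2 to 3 UMIs, and that of 151, rest on few UMIs of RGS5. These 22 spots held 66671 UMIs, and 0 UMIs there allows up to 45.0 raw CPM (3 counts of the total). By section the limit was 125 and 70.2 raw CPM against 100.2 and 110 in controls, so that in section 1 a level like that of the controls was within the limit. The ranges were set after the data were seen and the pattern was not tested.

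Elastic fibres let a vessel recoil. Of the 19 genes of the elastic fibre list 6 were tested and all 6 were higher (median log2 fold change 2.59). The filter on low counts keeps genes that are high in 1 kind of spot. With no filter 5 of 19 were higher and 0 lower (median 1.22). Of the 13 untested genes 4 were higher in raw CPM in both sections and 1, LTBP2, was lower. ELN, elastin itself, FBN1, MFAP2 and LOX had 0 UMIs in members and 0, 2, 0 and 1 in controls. LTBP1, which anchors transforming growth factor beta in the matrix, rose by 3.63 ± 0.68, MFAP4 by 3.51 ± 0.82, and AEBP1 by 3.18 ± 0.41. MGP, the inhibitor of calcification made by vessel smooth muscle, stood at 595 and 521 normalised CPM against 160 and 127 (3.99-fold, log2 differences of 1.87 in section 1 and 2.01 in section 2, SE of the joint log2 estimate 0.22). FBLN5, a fibulin of elastic fibres that was too low to be tested, had 18 UMIs in members and 12 in controls.

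Among 9 tested genes of basement membranes, the sheets under endothelium and around smooth muscle and muscle fibres, 4 were higher and 5 did not pass. Over all genes tested 17.5% were higher. With no filter on low counts 4 of 14 of the list were higher (median 0.92). COL18A1, a collagen of vessel basement membranes, stood at 249 and 132 normalised CPM against 5.70 and 14.1 (3.80 ± 0.64, adjusted p = 6.43e-05), and LAMB2 rose by 3.25 ± 0.80. The chains of collagen IV, which also surround each muscle fibre, gave 0.88 ± 0.37 for COL4A1 and 0.91 ± 0.45 for COL4A2 and did not pass (adjusted p = 0.0703 and 0.135).

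**Figure D3:**
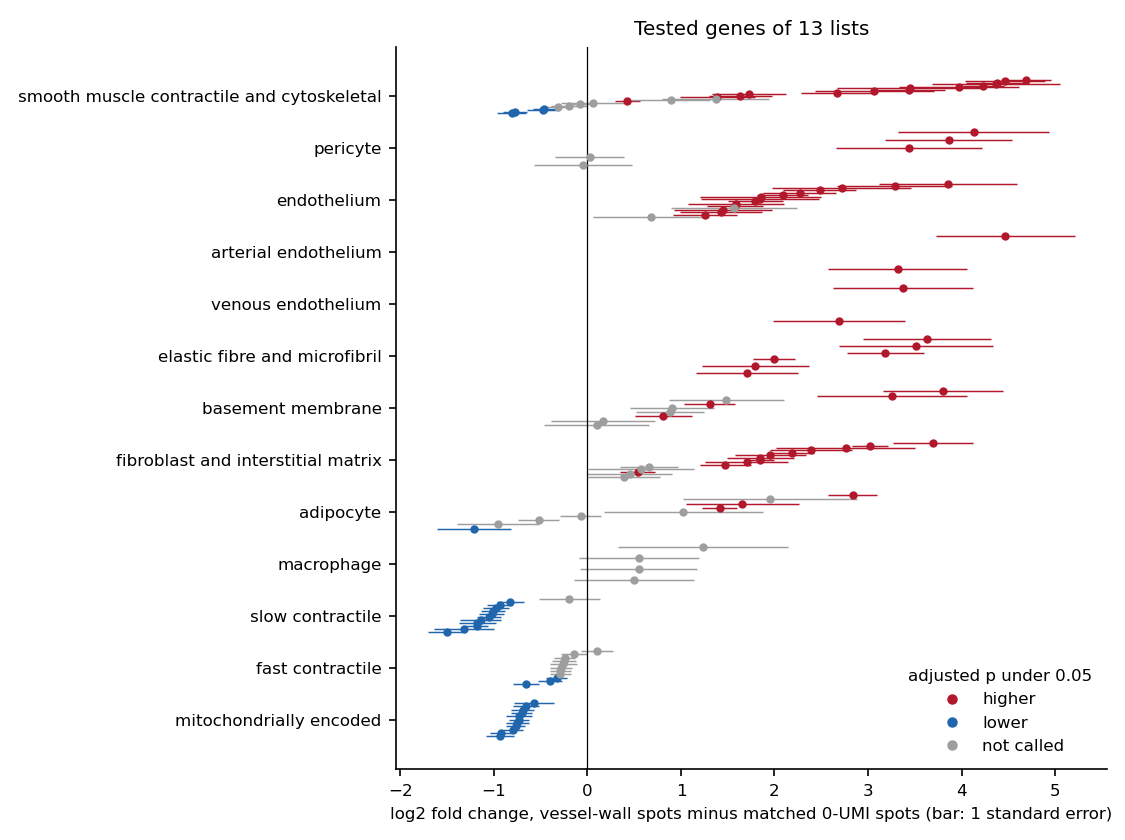
Each point is a tested gene of 1 of 13 lists, placed by its log2 fold change between vessel-wall spots and matched spots with 0 UMIs of the 4 genes (x axis, bar 1 standard error) and coloured by the edgeR call. Of the endothelial genes 14 of 16 are red, of the mitochondrially encoded genes 11 of 11 are blue, and 2 of 5 pericyte genes lie near 0.

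Connective tissue genes were higher in the same spots. Of 28 genes of the fibroblast and matrix list 15 were tested, 11 were higher and 4 did not pass (median 1.84). With no filter on low counts 9 of 26 were higher and 0 lower (median 1.11). VIM, vimentin, stood at 1355 and 998 normalised CPM against 97.0 and 151 (3.02 ± 0.20, adjusted p = 1.21e-11), BGN, biglycan, rose by 3.69 ± 0.43 and GSN, gelsolin, by 1.84 ± 0.15. Of the fibrillar collagens, COL5A2 rose by 2.76 ± 0.74 and COL1A2 by 1.47 ± 0.28, and COL3A1 gave 0.66 ± 0.31 (adjusted p = 0.113). DCN, decorin, gave 0.54 ± 0.19 (adjusted p = 0.0297) and lost its call under all 5 other draws of control spots. UMIs of collagen I or III were seen in 55.2% and 57.4% of vessel-wall spots against 25.3% and 29.1% of controls. When controls were also matched on collagen, 6 of the 15 fibroblast genes stayed higher with a median of 0.44, while 13 of 23 smooth muscle genes and 10 of 14 endothelial genes were higher.

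Markers of fat and immune cells were followed as other cells of the same connective tissue. FABP4, a fatty acid carrier of adipocytes and of capillary endothelium, stood at 871 and 492 normalised CPM against 62.7 and 91.5 (2.84 ± 0.26, adjusted p = 1.20e-08), and CFD, adipsin, rose by 1.41 ± 0.18. CD36, a fatty acid transporter of fat cells, capillary endothelium and muscle fibres, fell (-1.22 ± 0.39, adjusted p = 0.0205), and PNPLA2, the triglyceride lipase, gave -0.07 ± 0.22. ADIPOQ, which adipocytes alone are known to secrete, had 1 and 9 UMIs in the 29 and 47 members. In the 87 and 282 controls it had 7 and 2, and it did not pass. Of 9 tested genes of the adipocyte list 3 were higher, 1 was lower and 5 did not pass (median 1.02). Under the 5 other draws of controls 6 were tested, with medians from -0.41 to -0.32. The list summed to 2750 and 2255 raw CPM against 1239 and 1280. The macrophage list summed to 406 and 425 raw CPM against 274 and 225, and its 4 tested genes did not pass (log2 fold changes 0.50 to 1.24, adjusted p = 0.329 to 0.609). Of 11 Schwann cell genes in the files 8 were at 0 UMIs in members, and of 12 lymphocyte genes 8 were at 0. Of these genes only MBP (2 UMIs), NCAM1 (3) and NKG7 (3) were seen in controls, so the zeros do not set members apart. The lymphocyte list summed to 78.1 and 40.1 raw CPM against 21.1 and 26.3, on 5 UMIs in the members of each section. The Schwann cell list summed to 31.3 and 24.1 against 26.4 and 27.6. The part of fat and macrophage RNA in the results was not tested.

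HBB, a globin of red cells, is the measure of blood at hand. It stood at 3028 and 1673 normalised CPM in vessel-wall spots against 2715 and 1215 (0.29 ± 0.31, adjusted p = 0.518). The sums rested on few spots, since 1 member of section 1 held 156 of 219 UMIs and 1 of section 2 held 87 of 228. HBB was not seen at all in 19 of 29 and 26 of 47 members, and the 3 strongest spots of section 1 held 0 UMIs of it. With members of 4 or more UMIs only, HBB was lower (-0.97, adjusted p = 0.00215), so no direction is given for it.

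Receptors and channels that set vessel tone were mostly too rare to test. Of 27 such genes in the files 2 were tested: EDNRB, an endothelin receptor, stood at 69.1 and 66.1 normalised CPM against 11.4 and 11.3 (2.58 ± 0.76, adjusted p = 0.0114), and RAMP1, which muscle fibres also express, gave -0.34 ± 0.18. EDNRB was low in controls, and the filter on low counts keeps genes that are high in 1 kind of spot. Its list had 0 of 22 genes higher and 1 lower with no filter (median 0.98), and DESeq2 called 0 of the 2. KCNMB1, the smooth muscle subunit of a potassium channel, had 6 UMIs in members and 0 in controls. PDE5A, the enzyme that breaks down cyclic GMP, had 5 against 3, and 10 of the 27 genes had 0 UMIs in members.

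Of the immediate early and stress genes, 2 of 9 tested were higher, beside 17.5% of all genes. Of the 21 symbols of the list 18 were in the files. CCN2, which the list holds under its older name CTGF, was not matched and rose by 4.11 ± 0.73. KLF2, a transcription factor of endothelium, stood at 318 and 286 normalised CPM against 62.7 and 78.8 (1.99 ± 0.30, adjusted p = 1.44e-05), and KLF4 rose by 2.81 ± 0.69. CRYAB, a small heat shock protein that is abundant in slow fibres, fell (-0.65 ± 0.13). NR4A1 and DUSP1, which respond to tissue handling, gave -0.53 ± 0.27 and 1.06 ± 0.50 and did not pass.

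Slow fibre RNA took a smaller share of vessel-wall spots. The slow contractile list summed to 35364 and 43190 raw CPM against 72106 and 64641 in controls, and the fast list to 65930 and 71411 against 65202 and 75678. Of 12 slow contractile genes 11 were lower (median log2 fold change -1.04): MYL2, the slow light chain, stood at 5558 and 6826 normalised CPM against 15082 and 13268 (-1.18 ± 0.13, adjusted p = 8.97e-08), MYH7 at 7204 and 8822 against 17130 and 15352 (-1.01 ± 0.13), and MYL3 showed -1.50 ± 0.20. Of 11 fast contractile genes 3 were lower and 8 did not pass (median -0.28), and with no TMM factors 1 was lower. Over all genes tested 12.4% were lower. MYH4, the fast myosin of type IIB fibres, gave 0.10 ± 0.17 and MYH2, that of type IIA, -0.40 ± 0.13. All 8 tested sarcomere genes shared by fibre types were lower, ACTA1 by -0.67 ± 0.10. The difference between slow and fast lists was not tested as such. Without the 22 members of 10 or more UMIs, 0 of 12 slow genes were called (median -0.39).

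The makeup of myosin was followed as well. MYH7 made up 64.6% and 70.4% of the UMIs of MYH7, MYH2 and MYH4 in vessel-wall spots against 79.7% and 74.8% in controls. By dominant myosin, 7 of 29 and 15 of 47 vessel-wall spots were MYH7-dominant (24.1% and 31.9%) against 43.7% and 40.8% of controls. When controls were matched on this class too, 153 genes were higher and 79 lower, and 9 of the 12 slow genes stayed lower with a median of -0.61.

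Mitochondrial RNA was lower in vessel-wall spots. The 13 mitochondrially encoded genes took 11.8% and 12.5% of UMIs against 17.9% and 16.9% in controls, and all 11 that were tested were lower (median -0.74). With members of fewer than 10 UMIs only, 0 of these 11 were called (median -0.26). COX1 stood at 9306 and 11024 normalised CPM against 20262 and 18436 (-0.92 ± 0.12, adjusted p = 1.13e-06). Among single spots of section 1 the mitochondrial share ran from 2.94% to 22.0% with a median of 9.63%, and in section 2 from 4.59% to 21.5% with a median of 10.7%.

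Most of the 15 named genes with the largest fall had few UMIs in members, MYL3 with 143 being an exception. TEX9 had 0 and 2 UMIs in members against 15 and 41 in controls, a level 5.56 times as high in controls (exact 95% interval for counting error 1.47 to 47.0). CPT1B, which carries fatty acids into mitochondria of muscle, fell by 2.19 ± 0.66 on the log2 scale, on 4 UMIs in members. FIS1 and MFN2, which divide and fuse mitochondria, fell by 1.90 ± 0.63 and 1.62 ± 0.43. NDUFB3 (-1.47 ± 0.29) of respiratory complex I, SUCLG1 (-1.47 ± 0.40) of the citric acid cycle and MRPS18C (-1.92 ± 0.69) of mitochondrial ribosomes fell too. The remaining genes were TRAPPC2L, KLHL24, KLHL38, PTS, DUPD1, USP13, STRADB and MYL3, with log2 fold changes from -1.97 to -1.50. The call of KLHL38 was lost under 13 of 18 alternatives that gave it a value, that of DUPD1 under 10 of 20, that of FIS1 under 9 of 16, and that of CD36 above under 9 of 21.

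Of 10 glycolytic genes tested 5 fell and 5 did not pass (median -0.36), beside 12.4% lower over all genes. GAPDH stood at 14339 and 16712 normalised CPM against 19475 and 21248 (-0.39 ± 0.11, adjusted p = 0.00709). With no TMM factors none of the glycolytic genes was called, and DESeq2 called 1. Of 14 cytosolic ribosomal genes tested 2 were higher, 1 was lower and 11 did not pass, beside 17.5% higher and 12.4% lower over all genes. Their median was 0.06, so these stayed near the median of all genes.

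Spots with UMIs of the 4 genes that missed the rule formed another kind, the lower-signal spots (448 in section 1 and 617 in section 2). Drawn to the depth of the members (29 and 188 spots), they were set against the same control spots. Here 1 gene of 1641 was called (0.0609%, edgeR), 39 had an unadjusted p under 0.05, and DESeq2 called none with 7 under that limit. The gene was CST3, cystatin C, an inhibitor of cysteine proteases (chromosome 17, 30471056 to 30474486), which stood at 725 and 615 normalised CPM against 319 and 345 (0.93 ± 0.16, adjusted p = 0.00618). No gene was called in control draws 2, 4 and 6, so the call of CST3 depended on which spots were drawn.

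Set against these lower-signal spots, vessel-wall spots had 207 genes higher (12.6%) and 147 lower (8.96%). This comparison shares the vessel-wall sums with the main one, so its values are given side by side and not as a second line of evidence. MYL9 stood at 32.2 and 72.8 normalised CPM in lower-signal spots, FLNA at 96.7 and 97.1, and ADIRF at 80.6 and 30.3, all under the vessel-wall levels of 800.0 or more. The log2 fold changes between members and lower-signal spots were 3.68 ± 0.27, 3.34 ± 0.22 and 4.62 ± 0.35 for these 3 genes. ECSCR, an endothelial surface protein, stood at 124 and 103 normalised CPM against 0 and 12.1 (3.55 ± 0.84).

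**Figure D4:**
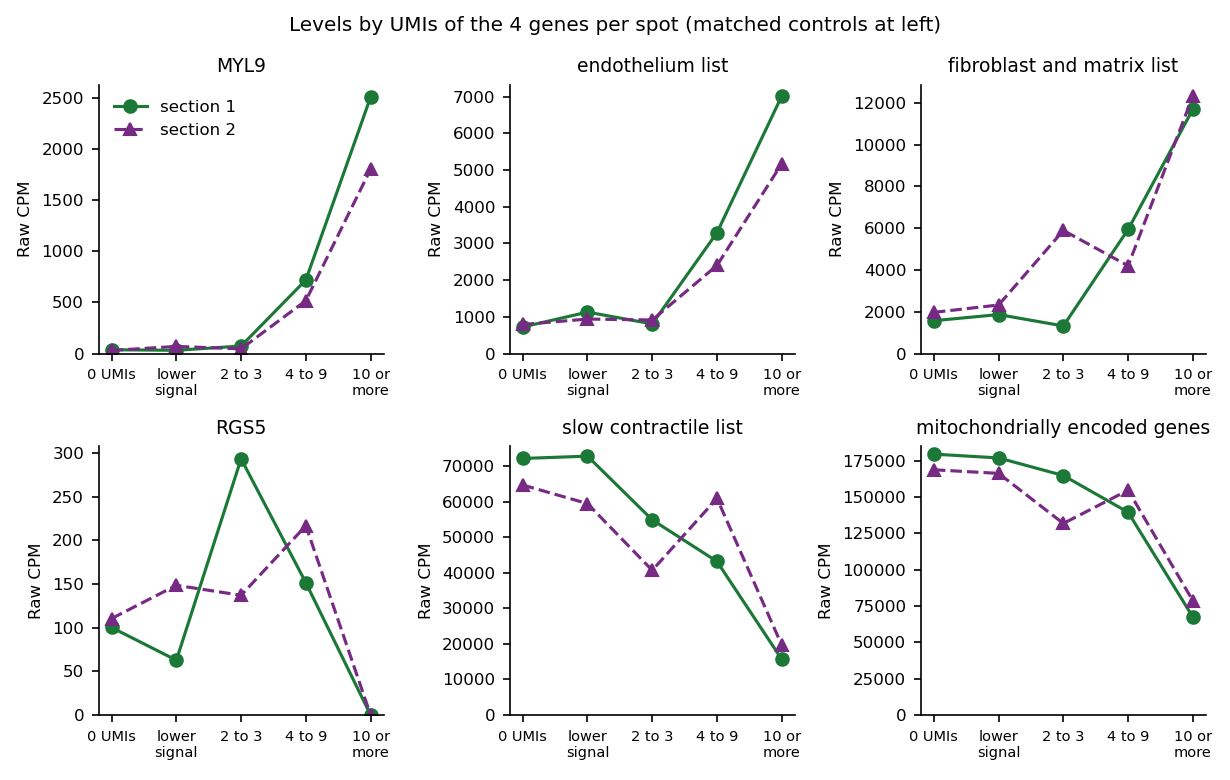
Lines give raw CPM (y axis) of MYL9, RGS5 and 4 gene lists in matched spots with 0 UMIs of the 4 genes, in lower-signal spots and in members with 2 to 3, 4 to 9 and 10 or more UMIs of the 4 genes (x axis), in green for section 1 and purple for section 2. From the weakest to the strongest members MYL9 runs from 73.3 and 45.7 to 2506 and 1802 raw CPM, while RGS5 ends at 0. MYL9 and RGS5 levels at 2 to 3 UMIs rest on few molecules.

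The size of these differences lay mainly in the strongest members, shown here as a description because the 4 genes and the others share depth and spots. MYL9 stood at 73.3 and 45.7 raw CPM in members with 2 to 3 UMIs of the 4 genes, at 719 and 517 with 4 to 9, and at 2506 and 1802 with 10 or more. The range of 2 to 3 UMIs held 10 and 14 members with medians of 1548.5 and 1642.5 UMIs, so its MYL9 levels rest on very few molecules. The endothelial list went from 807 and 914 to 3293 and 2401 and then 7018 and 5172 raw CPM. Members with 2 to 3 UMIs stood near the controls (723 and 792) in endothelial RNA. The fibroblast list was less even, with 1320 and 5895, then 5943 and 4202, then 11696 and 12333 raw CPM.

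Slow fibre RNA was lowest in the strongest members, with no steady order among the others in section 2. The slow contractile list took 54855 and 40671 raw CPM in members with 2 to 3 UMIs, 43156 and 60875 with 4 to 9 and 15664 and 19658 with 10 or more, against 72106 and 64641 in controls. The fast list took 56892 and 67445 in the strongest members against 65202 and 75678 in controls. MYH7 was 72.5%, 66.7% and 48.3% of the myosin UMIs from the weakest to the strongest range in section 1 and 57.9%, 80.1% and 53.0% in section 2. Mitochondrial RNA was 16.5%, 13.9% and 6.74% of all UMIs in section 1 and 13.2%, 15.5% and 7.86% in section 2. With members of fewer than 10 UMIs only, 49 genes were called, 46 higher and 3 lower, against 490 with all members. Without the strongest member of each section 392 were called.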

How the data were processed

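RNA of 2 sections was captured with 10x Visium slides. The authors deposited un-normalised UMI counts for every gene in every spot under tissue, made with Space Ranger 1.1 on Sscrofa11.1. Their reference lacked the Y chromosome and carried older MYH2 and MYH4 models, and labels and methods name different annotation releases. The labels mention barcoded porcine carrier RNA, whose handling in the counts no source used here gives. Of 31780 features, 15086 had no symbol, and 796 of these were named by identifier from a RefSeq table of the same assembly. Spots with over 25% mitochondrial UMIs, then the 2% with the fewest UMIs, were removed as in the study. The study also filtered out spots by hand and reported fewer spots than were kept here. Which of the members it kept is not known. Images and spot positions were not used here.

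Control spots were drawn within bins of log2 total UMIs (width 0.5) in a fixed ratio to the members (3 and 6 per member for spots with 0 UMIs, 1 and 4 for lower-signal spots). UMIs were summed per section and kind into 6 sums and compared by edgeR 4.0.16 under R 4.3.3 (TMM, filterByExpr with a minimum count of 10, glmQLFit and glmQLFTest, section as a block, as 1 animal gave all sums of a section). The 4 rule genes were left out. The fit had 2 residual and 23.04 prior degrees of freedom, so small p-values rest on spread shared between genes, and the p-values cover no more than the spread among these sums. The scripts were tested on simulated data.

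The members and the gene lists were chosen with earlier results of these data known. Genes were named by a rule: per comparison the 15 with the largest fold change in each direction among those called, with the same sign in both sections, at least 20 UMIs in the higher kind and a symbol, plus list members. MYH7 share classes used 0.75 and 0.5 as limits in spots with at least 5 myosin UMIs. DESeq2 1.42.0, other scalings, filters, matchings, draws and member rules were alternatives. A few genes that the rule or lists would name are not reported here.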

Additional observations from a re-analysis of the deposited data

How the results depend on the processing

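Main comparison (490 genes called): DESeq2 called 233 (171 higher, 62 lower, all 233 among the 490), spots not matched on total UMIs 1083 (443 and 640), matching on myosin class too 232, and, chosen after seeing the data, members with fewer than 10 UMIs 49. No TMM and scaling by spots moved the median of all genes to 0.22 and 0.21, and no filter to -0.30. The same sums without the replicate block (the section term) gave 519, and 399 in the comparison of members with lower-signal spots, which changed neither count by over 1.5 times. Lower-signal spots against spots with 0 UMIs (1 gene called) gave 3 with scaling by spots, 2 in control draw 5, 6 with members from 500 raw CPM and 74 unmatched. That count was 0 with DESeq2 (7 genes at an unadjusted p under 0.05), no filter (135), control draws 2 (58), 4 (51) and 6 (40), members with 2 or more of the genes (134) and myosin matching (21). It was also 0 without the strongest member of each section (38), with controls weighted by depth (53) and with members of fewer than 10 UMIs (18), all 3 chosen after seeing the data. Members against lower-signal spots (354) gave 138 with DESeq2, 764 unmatched, 625 with members of 4 or more UMIs, 612 with 2 or more of the genes, 221 with collagen matching, 181 with myosin matching and 11 with members of fewer than 10 UMIs. The cause of these changes was not tested.

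Of 202 genes followed one by one, 64 kept their direction and their side of the threshold under every alternative run for them. Signs turned for DCN (-0.24 unmatched, -0.048 with collagen matching), HBB (-0.97 with 4 or more UMIs), MYL6 (-0.062 with no filter, -0.045 from 500 raw CPM) and RPL35 (-0.087 with no filter, -0.071 unmatched), and, unmatched, for CST3 (-0.031), MYH4 (-0.78), RPL10 (-0.57) and RPLP0 (-0.42). Single sections leave no residual degrees of freedom, so their fold changes had no test. Depth limits rare genes most: 12 lymphocyte genes could not be tested.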
